A study of Mus musculus with 10 samples.

Results

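The molecular clock of the mouse kidney was described through 10 genes, Arntl, Clock, Npas2, Per1, Per2, Per3, Nr1d1, Nr1d2, Dbp and Tef, among 46517 genes counted by RNA sequencing. The genes are known clock genes, listed with earlier results of these data known and matched to the counted Ensembl IDs by symbol. All 10 passed the filter on low counts that left 17823 genes for testing. The series concerns mice that express variants of the human gene APOL1 in podocytes, the cells that wrap the capillaries of the glomerulus. APOL1 encodes a lipid-binding protein, and people who carry its variants G1 and G2 have a raised risk of chronic kidney disease. Whole kidneys gave 2 libraries labelled G1-APOL1, 2 labelled G2-APOL1, 3 labelled wild type (single mutant) and 3 labelled Control. The G1 and G2 libraries are called risk allele libraries here, as in their labels, and the other 6 libraries carry no such label. The labels state neither what single mutant means nor the driver of the transgene, the strain, the sex, the age or the time of day of the harvest. They do not say whether the libraries of a group came from separate mice. The p-values thus measure the spread between libraries, which may be technical. For the G1 libraries alone, sex-linked RNA given below shows separate mice. No check of the genotype labels against the APOL1 transcript was made, since that transcript was not analysed here.

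Library titles carry letters as well, whose meaning the labels do not state. Of the libraries without a risk allele, wild type (single mutant) replicate 1 has the letters G1NF, wild type (single mutant) replicate 2 has GNA1 and Control replicate 3 has NAP. These 3 libraries are called the set with letters beyond NA. Wild type (single mutant) replicate 3 and Control replicates 1 and 2 have the letters NA alone, and are called the NA set. The 4 risk allele libraries have the letters G1NF, GINF and, for both G2 libraries, GNA. No risk allele library has NA alone, so the genotype and these letters are partly tied. Each title set holds libraries of both labels without a risk allele.

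In mammals the clock is a loop of transcription. ARNTL, also called BMAL1, pairs with CLOCK or its relative NPAS2 and switches on genes through E-box sequences. Among these genes are Per1, Per2 and Per3, whose proteins act with cryptochromes to block the pair that switched them on. Nr1d1 and Nr1d2, which encode the REV-ERB nuclear receptors, are switched on in the same way and hold down Arntl and Npas2 through sequences called ROREs. Dbp and Tef encode PAR bZIP factors, output regulators of the clock that act through D-box sequences. The activator genes and these repressor and output genes therefore peak at opposite times of day in peripheral organs. In the kidney the clock is known for daily rhythms of filtration and of salt and water transport.

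The promoters below are shown because they hold the E-box (CACGTG), E-prime box (CACGTT), D-box (TTATGTAA) or RORE core (TAGGTCA) letters through which the loop works. Each is the 250 bases before a start given by RefSeq on GRCm38.p6, written from 5′ to 3′ on the gene's strand with the motif in capitals. Per1 (chr11:69098699-69098948, plus strand) held 1 E-box, 166 bases before the start. Per3 (chr4:151044666-151044915, minus strand) held the D-box letters at 205 and at 158 bases before the start. Nr1d1 (chr11:98775378-98775627, minus strand) held the E-prime box on the opposite strand, read as AACGTG, 28 bases before the start. Tef held 1 E-box in each of its 2 windows, 127 bases before the start in the first (chr15:81802423-81802672, plus strand) and 138 bases before it in the second (chr15:81811164-81811413, plus strand).
Per1: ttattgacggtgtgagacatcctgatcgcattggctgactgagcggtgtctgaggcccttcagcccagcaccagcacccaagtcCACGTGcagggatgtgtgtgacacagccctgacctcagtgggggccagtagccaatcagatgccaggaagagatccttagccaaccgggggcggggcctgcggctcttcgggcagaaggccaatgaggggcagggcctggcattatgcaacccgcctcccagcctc
Per3: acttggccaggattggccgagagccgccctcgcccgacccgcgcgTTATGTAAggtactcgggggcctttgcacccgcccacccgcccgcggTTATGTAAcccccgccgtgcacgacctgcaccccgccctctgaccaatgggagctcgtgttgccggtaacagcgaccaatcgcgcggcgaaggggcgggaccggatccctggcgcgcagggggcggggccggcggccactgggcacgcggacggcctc
Nr1d1: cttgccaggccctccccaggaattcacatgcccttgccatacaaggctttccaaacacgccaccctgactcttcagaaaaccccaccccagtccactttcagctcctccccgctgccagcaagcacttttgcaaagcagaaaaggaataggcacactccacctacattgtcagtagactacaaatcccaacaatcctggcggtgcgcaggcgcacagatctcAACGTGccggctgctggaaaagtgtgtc
Tef, first window: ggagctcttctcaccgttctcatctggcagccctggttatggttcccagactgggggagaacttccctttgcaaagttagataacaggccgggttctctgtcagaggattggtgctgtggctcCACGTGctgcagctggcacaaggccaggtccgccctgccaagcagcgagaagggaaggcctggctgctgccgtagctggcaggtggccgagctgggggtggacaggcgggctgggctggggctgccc
Tef, second window: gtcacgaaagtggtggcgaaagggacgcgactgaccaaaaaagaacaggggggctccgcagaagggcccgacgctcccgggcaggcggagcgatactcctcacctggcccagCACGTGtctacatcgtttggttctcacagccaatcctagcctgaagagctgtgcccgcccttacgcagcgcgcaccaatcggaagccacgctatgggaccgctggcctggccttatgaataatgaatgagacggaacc

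Arntl held the RORE core 31 bases after the start of its second window, and the 30 bases around it are given (chr7:113207530-113207559, plus strand). Ciart, a repressor of the CLOCK and ARNTL pair outside the 10 genes, held 3 E-boxes at 116, 58 and 44 bases before its start (chr3:95882229-95882478, minus strand) and is shown because its level returns in the results.
Arntl, around the RORE core: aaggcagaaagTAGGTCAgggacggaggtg
Ciart: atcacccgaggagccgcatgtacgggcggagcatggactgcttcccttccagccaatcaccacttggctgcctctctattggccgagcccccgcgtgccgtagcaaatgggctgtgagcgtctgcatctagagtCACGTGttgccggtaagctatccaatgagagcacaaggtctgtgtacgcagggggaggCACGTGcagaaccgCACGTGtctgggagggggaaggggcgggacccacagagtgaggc

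RefSeq windows, each from 250 bases before to 50 bases after a start, were found for 9 of the 10 genes, 14 windows in all, and 5 genes held at least 1 of the 6 motifs searched on both strands. The E-box was present in 7.15% of all 32851 windows, the E-prime box in 4.68%, TTATGTAA in 0.938%, its variant TTACGTAA in 0.119%, the cyclic AMP element TGACGTCA in 1.79% and the RORE core in 2.61%. A match describes letters in this window and shows no binding, and a window without one says nothing about the factor.

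Library totals lay between 27596391 and 34815153 counts. Values are counts per 1000000 counts (CPM) after TMM scaling, which sets libraries to a common composition. Over the genes tested, the first principal component held 56.8% of the variance and separated the 4 risk allele libraries from the other 6. Among those 6 alone, the first component held 44.5% and separated the title sets. G1 replicate 2 stood apart with 360 CPM of Xist, the RNA of the inactive X chromosome, against at most 1.13 CPM in the other libraries. It held 0.20 CPM of the Y-linked gene Ddx3y, against 36.1 to 51.7 CPM in the other libraries. The G1 libraries thus came from mice of different sex. The tissue label was checked by 8 kidney markers, all detected. Their summed level was 6879 to 38410 CPM in risk allele libraries, 41860 to 55598 CPM in the set with letters beyond NA and 28764 to 35657 CPM in the NA set. Kap alone was at 27342 to 41049 CPM with letters beyond NA and at 15492 to 23076 CPM with NA alone, so it carries most of the sum in both sets. Slc12a3 and Atp6v1b1 were lower with letters beyond NA than with NA alone. The edgeR test described below called 0 of the 8 between the title sets, with 2 at an unadjusted p under 0.05, beside 3377 of all 17823 genes. In whole tissue, fewer cells of a type and less RNA per cell cannot be told apart.

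Of the activator genes, Arntl and Npas2 split the libraries without a risk allele by title letters, and Clock did not. Arntl (chromosome 7, 113207465 to 113314126, GENCODE M21 on GRCm38) was at 2.41 and 3.05 CPM in the G1 libraries and at 5.33 and 4.56 CPM in the G2 libraries. Among libraries without a risk allele it was at 1.64, 2.995 and 2.94 CPM in the set with letters beyond NA, against 34.5, 22.0 and 16.8 CPM in the NA set. Every NA library thus lay above all 7 others, and the risk allele libraries overlapped the set with letters beyond NA. The mean of the NA set was 9.67 times that of the set with letters beyond NA.

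Npas2 (chromosome 1, 39193731 to 39363236), the paralog of Clock, had the widest range of the 10 genes, 29.7-fold between its highest and lowest library. Risk allele libraries held 4.93 and 4.54 CPM of Npas2 (G1) and 4.45 and 3.46 CPM (G2). The set with letters beyond NA held 0.924, 1.64 and 1.19 CPM, and the NA set 27.4, 14.6 and 16.0 CPM. Here the 3 sets did not overlap, and the risk allele libraries lay between the other sets. The lowest library still had 27 counts of Npas2.

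Clock (chromosome 5, 76209868 to 76304792), the partner of ARNTL, varied least, with a 1.88-fold range. It was at 36.5 and 35.8 CPM in the G1 libraries and at 34.1 and 39.5 CPM in the G2 libraries. The other sets held 45.4, 49.9 and 49.7 CPM with letters beyond NA and 64.0, 51.4 and 49.3 CPM with NA alone. After TMM scaling all 4 risk allele libraries lay below all 6 others, while the title sets overlapped. By library totals alone this gap closed. There G2 replicate 2 was at 45.6 CPM, above the 42.3, 43.9 and 45.2 CPM of the set with letters beyond NA.

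**Figure D1:**
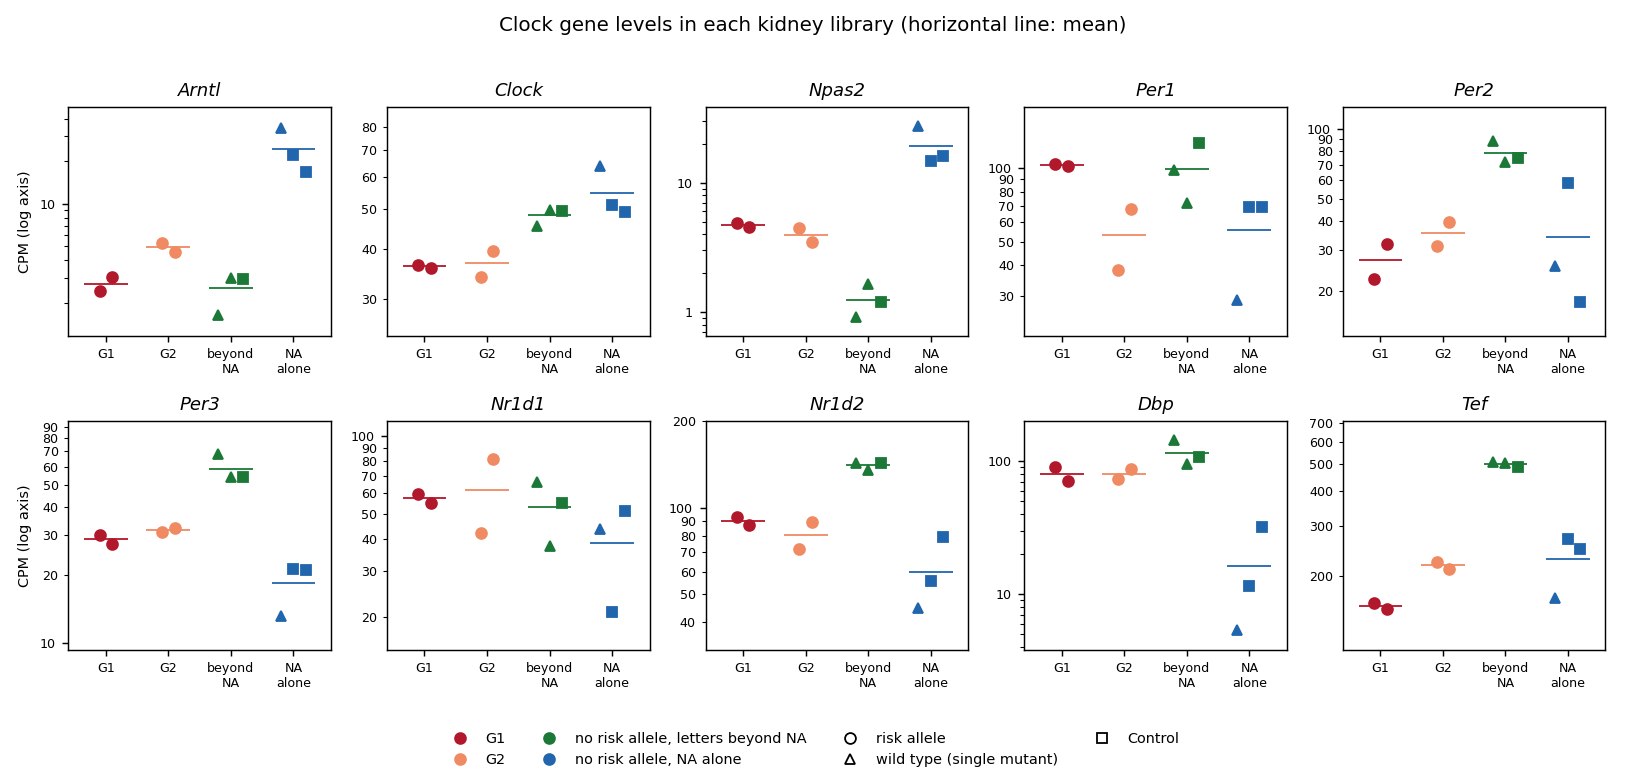
CPM, on a log axis of its own in each panel, of the 10 clock genes in each library by set, with a line at the mean of the set. The 3 NA libraries lie at the top for Arntl and Npas2 and at the bottom for Per3 and Dbp. With the TMM scaling used here, the 4 risk allele libraries lie below the other 6 for Clock.

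The period genes encode repressors of the loop that act with the cryptochromes. Per3 (chromosome 4, 151003652 to 151044665) was at 30.1 and 27.5 CPM in the G1 libraries and at 31.0 and 32.3 CPM in the G2 libraries. Its level was 68.1, 54.1 and 54.1 CPM with letters beyond NA and 13.1, 21.2 and 21.2 CPM with NA alone. Per3 gave 3 sets without overlap, in the reverse order to Npas2.

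Per2 (chromosome 1, 91415982 to 91459324) was at 22.4 and 31.7 CPM in the G1 libraries and at 31.3 and 39.8 CPM in the G2 libraries. The set with letters beyond NA held 88.5, 71.9 and 74.7 CPM and the NA set 25.6, 58.5 and 17.96 CPM. The value of 58.5 CPM belonged to Control replicate 1, which stood above the other NA libraries and above every risk allele library. Per1 (chromosome 11, 69095217 to 69109960), which also responds acutely to glucocorticoids, was at 104 and 103 CPM in G1, at 38.2 and 68.3 CPM in G2, at 98.4, 71.8 and 127 CPM with letters beyond NA and at 28.9, 69.4 and 69.6 CPM with NA alone. Risk allele libraries overlapped both title sets for Per1.

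Nr1d2 (chromosome 14, 18204054 to 18239127), the gene of REV-ERB beta, was at 93.1 and 86.8 CPM in G1 and at 72.1 and 89.4 CPM in G2. It was at 143, 135 and 143 CPM with letters beyond NA, against 44.9, 55.6 and 79.1 CPM with NA alone. The title sets were apart, and the highest NA library reached into the range of the risk allele libraries. Nr1d1 (chromosome 11, 98767932 to 98775333), the gene of REV-ERB alpha, was at 59.8 and 54.9 CPM in G1, at 42.2 and 81.6 CPM in G2, at 66.2, 37.5 and 54.8 CPM with letters beyond NA and at 43.7, 20.9 and 51.4 CPM with NA alone. All sets overlapped for Nr1d1, whose lowest library was Control replicate 1.

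Dbp (chromosome 7, 45705088 to 45710203) mirrored Arntl. Risk allele libraries held 90.3 and 70.8 CPM (G1) and 72.9 and 86.7 CPM (G2), the set with letters beyond NA held 143, 95.6 and 108 CPM and the NA set 5.38, 11.6 and 32.2 CPM. All NA libraries lay below all others, and the mean of the set with letters beyond NA was 7.03 times that of the NA set. Tef (chromosome 15, 81802421 to 81826863) was at 159 and 152 CPM in G1 and at 224 and 210.4 CPM in G2. It was at 509, 505 and 489 CPM with letters beyond NA and at 166, 269 and 249.8 CPM with NA alone. The set with letters beyond NA was thus high and tight for Tef, and the risk allele libraries overlapped the NA set. Per kilobase of exon, Tef had the highest mean level over the 10 libraries, 37.3 CPM per kb, followed by Dbp at 23.9 CPM per kb, and Arntl had the lowest at 1.28 CPM per kb.

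**Figure D2:**
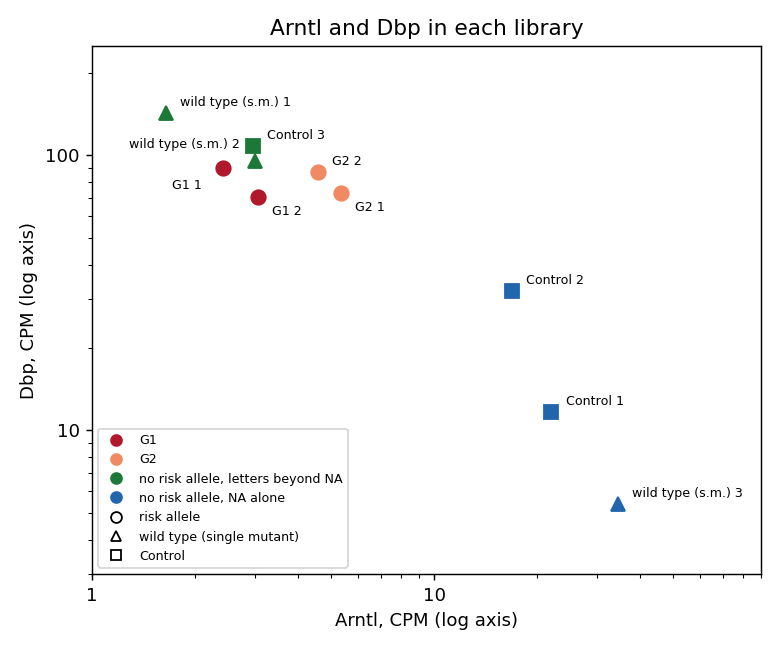
Dbp against Arntl in each of the 10 libraries, in CPM on log axes, where s.m. stands for single mutant. The 3 NA libraries lie at 16.8 CPM of Arntl or more and 32.2 CPM of Dbp or less, and the other 7 lie at 5.33 CPM or less and 70.8 CPM or more.

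The relation of the arms was read library by library as the mean log2(CPM + 0.5) of the 3 activator genes minus that of the 7 repressor and output genes. This difference was -3.001 and -2.91 in the G1 libraries and -2.52 and -2.997 in the G2 libraries. With letters beyond NA it was -4.56, -3.72 and -4.08, and with NA alone 0.42, -0.78 and -1.08. Wild type (single mutant) replicate 3, in the NA set, had the highest difference. The levels are CPM and not per length, so only the order of the difference across libraries is read, and its sign is not. The difference averaged -2.86 ± 0.23 in risk allele libraries (SD, n = 4), -4.12 ± 0.42 with letters beyond NA and -0.48 ± 0.79 with NA alone (SD, n = 3 each). The 3 sets did not overlap, and no test was made of this score because its genes were chosen with earlier results of these data known.

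By genotype label the same difference was -2.95 ± 0.07 in G1 and -2.76 ± 0.34 in G2 (SD, n = 2 each), -2.62 ± 2.67 in wild type (single mutant) and -1.98 ± 1.82 in Control (SD, n = 3 each). The spread within each label without a risk allele was thus far wider than within a title set, since both labels hold libraries of both title sets. The ratio of Dbp to Arntl was 37.4, 23.2, 13.7 and 19.0 in the risk allele libraries, 86.8, 31.9 and 36.7 with letters beyond NA and 0.156, 0.528 and 1.91 with NA alone. Both levels are CPM and not per length, so only the order of the ratio across libraries is read, and it put all NA libraries below all others.

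**Figure D3:**
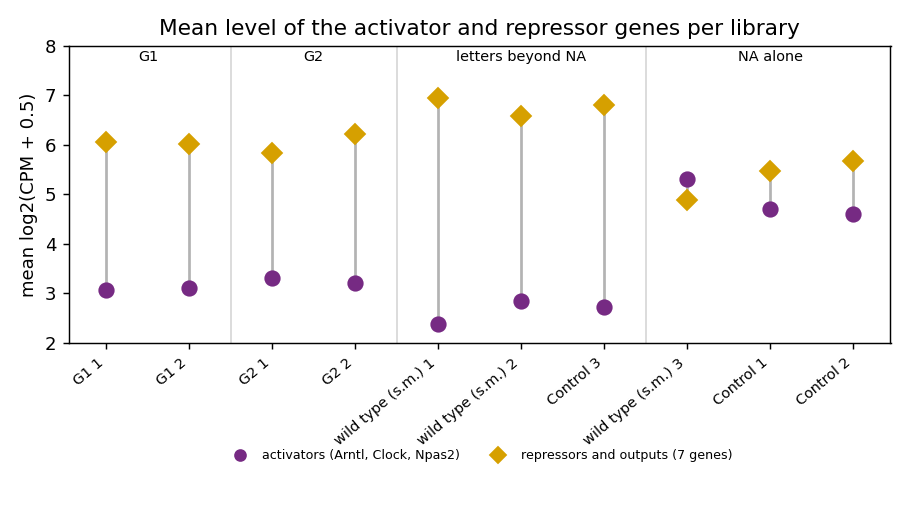
Mean log2(CPM + 0.5) of the activator genes and of the repressor and output genes in each library, joined by a line, where s.m. stands for single mutant. The difference, activators minus repressors and outputs, is lowest with letters beyond NA (-3.72 to -4.56). It is higher in risk allele libraries (-2.52 to -3.001) and highest with NA alone (-1.08 to 0.42). Levels are not per length, so only this order is read.

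The NA libraries also differed among themselves. The ratio of Per2 to Nr1d1, again of CPM, was 0.375, 0.578, 0.742 and 0.487 in the risk allele libraries and 1.34, 1.92 and 1.36 with letters beyond NA. With NA alone it was 0.586 in wild type (single mutant) replicate 3, 2.81 in Control replicate 1 and 0.35 in Control replicate 2. Control replicate 1 held the most Cry1, a cryptochrome repressor gene, with 20.6 CPM, and the most Nfil3, which encodes a repressor at D-boxes, with 31.2 CPM. Cry1 and Nfil3 were singled out here after their values were seen.

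Title letters were then compared within the libraries without a risk allele by the quasi-likelihood test of edgeR, and p-values were adjusted by Benjamini-Hochberg over all genes tested. Of the 10 clock genes 6 differed, 4 higher and 2 lower with letters beyond NA than with NA alone, where 2.88% of all genes tested were called. In 8 of the 10 the title sets did not overlap, as in 25.3% of all genes. The median log2 fold change was 0.98 over the 10 genes and -0.02 over all genes. Because the genes were chosen with earlier results of these data known, these shares are descriptions.

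Npas2 fell by 3.95 ± 0.31 on the log2 scale with letters beyond NA relative to NA alone (SE, edgeR adjusted p = 0.00145), and Arntl fell by 3.28 ± 0.32 (edgeR adjusted p = 0.00283). Dbp rose by 2.82 ± 0.53 (edgeR adjusted p = 0.0312) and Per3 by 1.67 ± 0.18 (0.00464). Nr1d2 rose by 1.23 ± 0.18 (0.0133) and Tef by 1.13 ± 0.16 (0.0109). Per2 at 1.20 ± 0.37 (0.12), Per1 at 0.82 ± 0.35 (0.243), Nr1d1 at 0.45 ± 0.35 (0.555) and Clock at -0.18 ± 0.11 (0.423) did not pass. The Dbp call was lost when wild type (single mutant) replicate 1 or 2 or Control replicate 1 or 3 was left out (edgeR adjusted p 0.0677 to 0.0905). The Nr1d2 call was lost without wild type (single mutant) replicate 2 (0.0515), and Per2 passed without Control replicate 1 (log2 fold change 1.85, 0.00777), with DESeq2 (1.21, 0.0121) and with no low-count filter (1.21, 0.0281).

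The title difference had the same sign in both labels for all 10 genes. Wild type (single mutant) replicate 3 alone stands for NA in its label, and Control replicate 3 alone for letters beyond NA in its own. The difference was small for Clock among Control libraries (-0.02) and for Nr1d1 among wild type (single mutant) libraries (0.19). For Arntl it was -3.68 among wild type (single mutant) libraries and -2.52 among Control libraries, and for Dbp 4.32 and 2.45, each on the log2(CPM + 0.5) scale. The edgeR fit by label and title set together gave the title difference in wild type (single mutant) minus that in Control. Over the 10 genes it ran from -1.17 for Arntl to 2.17 for Dbp on the log2 scale. Since replicate 3 alone stands for a title set in each label, no call is read from that fit. By the first letter alone, titles starting with G against titles starting with N, edgeR called 0 of the 10 genes and 0% of all genes, with 4 of the 10 and 1798 of all genes at an unadjusted p under 0.05. DESeq2 called 2 of the 10 in that split, Npas2 and Arntl, and edgeR called 5 of the 10 and 175 of all genes once Control replicate 3, the NAP library, was left out.

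Set against the 3 libraries with letters beyond NA, the 4 risk allele libraries had higher Npas2 and lower Tef, Per2, Per3, Nr1d2 and Clock. That is 6 of the 10 genes, 1 up and 5 down, where 47.1% of all genes were called, so the share is near the background. Tef fell by 1.45 ± 0.14 on the log2 scale (SE, edgeR adjusted p = 6.36e-05) and Per2 by 1.34 ± 0.34 (0.0102). Per3 fell by 0.96 ± 0.16 (0.00119), Nr1d2 by 0.72 ± 0.17 (0.00644) and Clock by 0.41 ± 0.10 (0.0103). Npas2 rose by 1.78 ± 0.29 (0.000881). Arntl at 0.54 ± 0.29 (0.158), Dbp at -0.53 ± 0.45 (0.374), Per1 at -0.42 ± 0.32 (0.321) and Nr1d1 at 0.17 ± 0.33 (0.694) did not pass.

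The same 6 genes were called without G1 replicate 2, the library high in Xist, as without each other library. With library totals in place of TMM scaling the median log2 fold change of all genes was 0.33, against 0.02 with TMM, and the calls became 2 up and 3 down. Nr1d2 and Clock lost their calls there, at -0.41 (edgeR adjusted p = 0.0728) and -0.10 (0.521), and Arntl gained one at 0.85 (0.0342).

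Set against the NA libraries, the risk allele libraries also differed in 6 of the 10 genes, 3 up and 3 down, where 41.4% of all genes were called. Arntl fell by 2.73 ± 0.28 (SE, edgeR adjusted p = 0.000103), Npas2 fell by 2.16 ± 0.25 (0.000213) and Clock by 0.59 ± 0.10 (0.00181). Dbp rose by 2.29 ± 0.50 (0.00577), Per3 by 0.71 ± 0.17 (0.00866) and Nr1d2 by 0.51 ± 0.17 (0.0387). Tef at -0.31 ± 0.14 (0.114), Nr1d1 at 0.62 ± 0.33 (0.164), Per1 at 0.41 ± 0.33 (0.351) and Per2 at -0.13 ± 0.34 (0.782) did not pass. The Nr1d2 call was lost when any library other than G2 replicate 1 or Control replicate 2 was left out (edgeR adjusted p 0.054 to 0.117), and Tef passed without wild type (single mutant) replicate 3 (-0.50, 0.00249). Clock was lower in risk allele libraries against either title set. These comparisons share the risk allele libraries, and the title comparison shares the libraries without a risk allele, so their folds are not independent of each other.

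**Figure D4:**
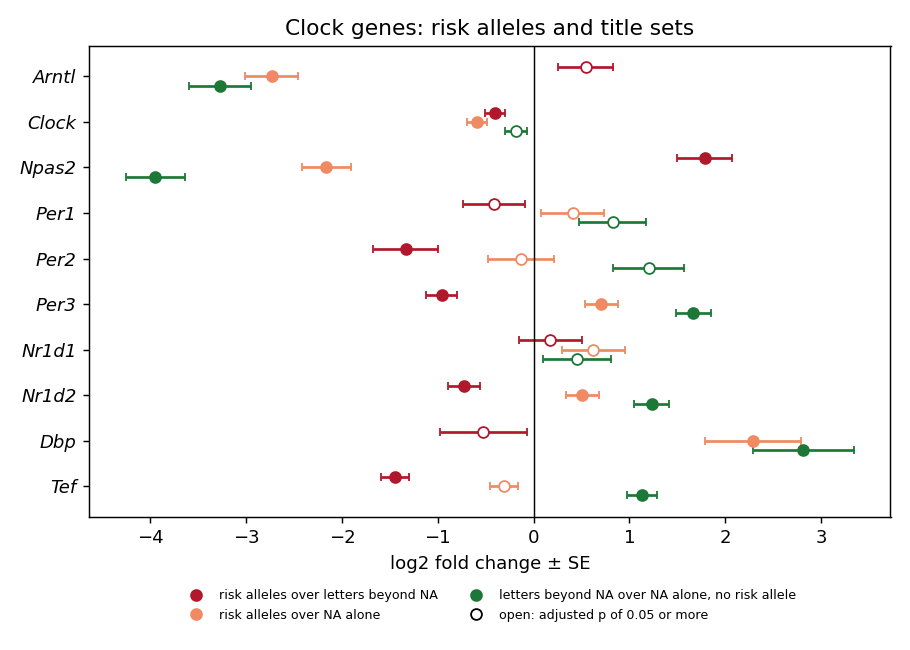
Log2 fold changes with SE of the 10 clock genes in 3 comparisons, risk allele libraries over each title set and letters beyond NA over NA alone, with filled points at an edgeR adjusted p under 0.05. Arntl and Npas2 lie between -3.95 and -2.16 in both comparisons over the NA set, and Tef and Per2 lie at -1.45 and -1.34 for risk alleles over letters beyond NA.

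Genotype labels taken without the titles gave fewer calls. Clock averaged 36.5 ± 2.27 CPM in risk allele libraries (SD, n = 4), 53.1 ± 9.68 CPM in wild type (single mutant) and 50.1 ± 1.09 CPM in Control (SD, n = 3 each). Against Control it was the 1 called gene of the 10, where 37.3% of all genes were called, and it fell by 0.46 ± 0.12 on the log2 scale (SE, edgeR adjusted p = 0.0151). Arntl was at -1.92 ± 0.98 (0.153) and Tef at -0.87 ± 0.37 (0.0964). Without wild type (single mutant) replicate 3, both Arntl (0.027) and Tef (0.0148) passed. The Clock call was lost with library totals alone (-0.18, edgeR adjusted p = 0.317). It was also lost with each title term in the fit, at -0.30 with the letters NF (0.162), -0.03 with titles starting with G (0.912) and -0.31 with letters beyond NA (0.0811).

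Against wild type (single mutant), 2 of the 10 genes fell, where 39.9% of all genes were called. These were Clock, by 0.54 ± 0.12 (SE, edgeR adjusted p = 0.0064), and Tef, by 1.10 ± 0.37 (0.0424). The Tef call was lost without any 1 of G1 replicate 1 or 2, G2 replicate 1 or 2, wild type (single mutant) replicate 1 or 2 or Control replicate 1 (edgeR adjusted p 0.0551 to 0.145). With the letters beyond NA as a term in the fit, chosen after the data were seen, 6 of the 10 genes were called against Control beside 6349 of all 17823 genes, and Clock was not among the 6. Against wild type (single mutant) 6 of the 10 were called in that fit beside 7627 of all genes, Clock among them.

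For G1 against Control, 1 of the 10 genes was called, where 37.3% of all genes were, namely Clock at -0.47 ± 0.14 (SE, edgeR adjusted p = 0.03). That call was lost without any 1 of the G1 or Control libraries (0.0533 to 0.155). For G2 against Control 0 of the 10 were called by edgeR against 21.6% of all genes. An unadjusted p under 0.05 was found for 1 of the 10, beside 6348 of all genes, and DESeq2 called 1 of the 10. For G2 against G1 edgeR called 0 of the 10 against 6.72% of all genes. An unadjusted p under 0.05 was found for 0 of the 10, beside 4371 of all genes, and DESeq2 and limma-voom called 0 of the 10. For wild type (single mutant) against Control edgeR called 0 of the 10 and 0% of all genes, with 0 of the 10 and 724 of all genes at an unadjusted p under 0.05, and DESeq2 called 14 genes in all but 0 of the 10.

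A further 25 genes that act in or next to the clock were read in the same fits. With letters beyond NA against NA alone, 1 of the 25 rose and 0 fell by edgeR, where 2.88% of all genes were called. Of the 25, 9 had an unadjusted p under 0.05, beside 3377 of all 17823 genes. The gene that rose was Ciart, which rose by 2.85 ± 0.49 (SE, edgeR adjusted p = 0.021). Ciart was at 19.8, 13.6 and 23.8 CPM with letters beyond NA and at 1.09, 3.16 and 3.69 CPM with NA alone, and at 4.88, 5.17, 2.60 and 7.15 CPM in the risk allele libraries. The call was lost without any 1 of the libraries with letters beyond NA (0.0523 to 0.0608).

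In risk allele libraries against those with letters beyond NA, 5 of the 25 rose and 12 fell, beside 47.1% of all genes called. Fbxw11, which encodes a ubiquitin ligase subunit that marks PER proteins for degradation, fell by 0.91 ± 0.07 (SE, edgeR adjusted p = 2.6e-05). Nampt, the clock-driven enzyme gene of NAD salvage, fell by 1.04 ± 0.09 (3.5e-05). Hlf, which encodes the PAR bZIP factor beside DBP and TEF, fell by 1.58 ± 0.15 (5.5e-05). Ciart fell by 1.94 ± 0.42 (0.00442), and Timeless, a replication fork gene related to the fly clock gene of that name, rose by 1.37 ± 0.18 (0.000297). Against the NA libraries 7 of the 25 rose and 7 fell, beside 41.4% of all genes called, and Hlf fell by 1.11 ± 0.15 (0.000495), Nampt by 0.80 ± 0.09 (0.000188) and Fbxw11 by 0.58 ± 0.07 (0.000356) while Timeless rose by 1.18 ± 0.18 (0.000869). Hlf was at 66.0, 56.9, 83.3 and 92.0 CPM in the risk allele libraries, at 224, 212 and 224 CPM with letters beyond NA and at 114, 185 and 177 CPM with NA alone, with no overlap between any of the 3 sets. By genotype label, 5 of the 25 rose and 8 fell in risk allele libraries against Control, where 37.3% of all genes were called. For G1 against Control 7 rose and 7 fell, beside 37.3% of all genes. For G2 against Control 2 rose and 4 fell, beside 21.6% of all genes.

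**Figure D5:**
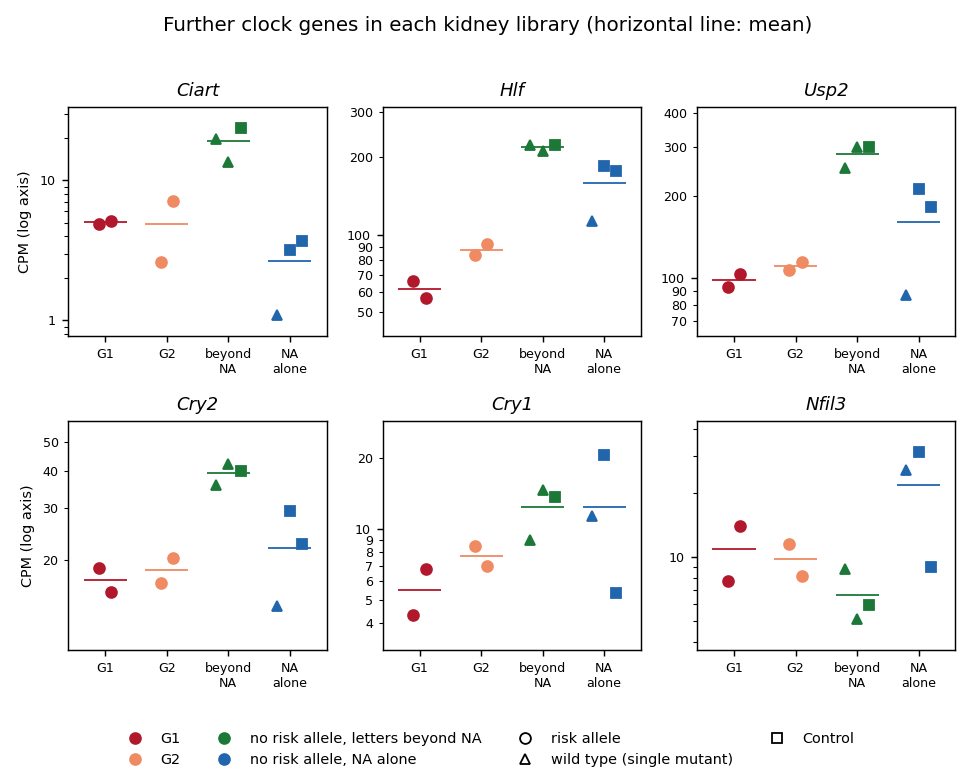
CPM, on a log axis of its own in each panel, of 6 further clock genes in each library by set, with a line at the mean of the set. Ciart is at 13.6 CPM or more with letters beyond NA and at 7.15 CPM or less in every other library, and Hlf is at 92.0 CPM or less in the risk allele libraries and at 114 CPM or more in the others.

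Genes linked to the clock, in the kidney or through the body as a whole, were listed in 4 groups. Of 4 PAR bZIP targets, all 4 fell in risk allele libraries against letters beyond NA, where 47.1% of all genes were called, beginning with Gnmt (glycine methyltransferase), which fell by 2.16 ± 0.21 (SE, edgeR adjusted p = 5e-05). Cyp2a4 fell by 1.31 ± 0.26 (0.0027), Por (cytochrome P450 reductase) by 1.10 ± 0.08 (1.5e-05) and Alas1 (heme synthesis) by 0.85 ± 0.19 (0.00545). The fall of Cyp2a4, a mean over G1 and G2, lay mainly in G1. Cyp2a4 was at 145 and 57.6 CPM in G1 and at 533 and 442 CPM in G2. With letters beyond NA it was at 570, 540 and 545 CPM, and for G2 against Control its log2 fold change was -0.16 (edgeR adjusted p = 0.753). Por alone of the 4 also differed between the title sets, where it rose by 0.59 ± 0.08 with letters beyond NA (0.0115). In the same comparison, of 8 genes of kidney transport and its regulation under the clock 1 rose and 5 fell, beside the same 47.1%. Edn1 (endothelin 1) rose by 3.29 ± 0.31 (4.5e-05), while Slc9a3 (the NHE3 exchanger) fell by 2.16 ± 0.21 (5.6e-05), Slc12a3 (the thiazide-sensitive cotransporter) by 1.96 ± 0.13 (1.3e-05) and Slc5a2 (the SGLT2 transporter) by 1.67 ± 0.17 (6.7e-05). Between the title sets edgeR called 0 of these 8, with 4 at an unadjusted p under 0.05, beside 3377 of all 17823 genes.

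Of 6 glucocorticoid targets, 3 fell in risk allele libraries against letters beyond NA, among them Klf9 by 1.20 ± 0.21 (SE, edgeR adjusted p = 0.00136) and Errfi1 by 0.87 ± 0.18 (0.0033). The third, Fkbp5, was at -0.91 ± 0.33 (0.0496). Its call was lost with library totals alone (0.17), with limma-voom (0.0753) and without any 1 of the G1 or G2 libraries, wild type (single mutant) replicate 2 or 3 or Control replicate 3 (0.0549 to 0.205). Of 8 temperature-linked genes 1 rose, Rbm3 by 1.10 ± 0.22 (0.00301), and 2 fell, Hsph1 and Hsp90aa1. The rise of Rbm3, a mean over G1 and G2, lay mainly in G1, at 199 and 159 CPM. In G2 it was at 70.4 and 62.0 CPM, which overlapped 70.6, 46.6 and 35.1 CPM with letters beyond NA. The Hsph1 call was lost with library totals alone (0.0799) and without G1 replicate 1, G2 replicate 1 or Control replicate 3 (edgeR adjusted p 0.0626 to 0.069). The Hsp90aa1 call was lost with library totals alone (0.366) and without any 1 of the G1 or G2 libraries, wild type (single mutant) replicate 2 or Control replicate 3 (edgeR adjusted p 0.0558 to 0.0964). The shares called in both groups are read beside 47.1% of all genes called in this comparison. Between the title sets edgeR called 0 of the 6 glucocorticoid targets and 0 of the 8 temperature-linked genes, and 0 of either had an unadjusted p under 0.05.

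Markers of other cells moved with the risk allele as well. The summed level of 4 injured tubule markers was 417 to 1415 CPM in risk allele libraries, 13.7 to 23.9 CPM with letters beyond NA and 20.5 to 22.4 CPM with NA alone, and all 4 rose against letters beyond NA. Of 4 macrophage markers, whose sum was 405 to 617 CPM, 101 to 106 CPM and 113 to 122 CPM in the same order of sets, all 4 rose too. All 3 erythrocyte markers fell, with sums of 13.3 to 230 CPM in risk allele libraries, 302 to 542 CPM with letters beyond NA and 446 to 912 CPM with NA alone. Of the other lists, 5 of 8 kidney, 2 of 3 liver and 1 of 3 adipose markers fell against letters beyond NA. All 3 T cell markers rose, and 0 adrenal or muscle markers were called. In the comparison with letters beyond NA 47.1% of all genes were called. The part of these marker shifts in the clock gene values of the risk allele libraries was not tested. Between the title sets the sums of injured tubule markers overlapped and edgeR called 0 of the 4 (1 at an unadjusted p under 0.05), and 1 of the 4 macrophage markers was lower with letters beyond NA. The macrophage sums did not overlap between the title sets, and 3 of the 4 had an unadjusted p under 0.05 by edgeR. Of the 3 erythrocyte markers edgeR called 0 there, with 2 at an unadjusted p under 0.05, beside 3377 of all 17823 genes. The sum of 3 adipose markers was 30.8 to 108 CPM with letters beyond NA and 0.978 to 33.5 CPM with NA alone, and that of 3 liver markers was 14.4 to 614 CPM with letters beyond NA and 15.3 to 26.8 CPM with NA alone. Ttr, the transthyretin gene among the liver markers, was at 399.8 and 314 CPM in wild type (single mutant) replicates 1 and 2 and at 1.83 CPM in Control replicate 3, against 2.29 to 3.17 CPM with NA alone. In risk allele libraries Ttr was at 141 and 114 CPM (G1) and at 332 and 1.35 CPM (G2), so it varied within title sets and genotype labels. Between the title sets edgeR called 0 of the 3 markers of each list. An unadjusted p under 0.05 was found for 2 liver and 0 adipose markers, beside 3377 of all 17823 genes. The part of the liver and adipose markers in the clock gene values was not tested.

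The genes whose pattern was most like Arntl over the 6 libraries without a risk allele were Tspan8 (Pearson r = 0.999), Rdh10 (0.995), Npas2 (0.992), Msl3 (0.990) and Fundc1 (0.986), among 11018 genes that averaged 5 CPM or more. Most like Dbp were Nr1d2 (0.994), Fam210a (0.985), Rtf2 (0.984), Sertad2 (0.981) and Fut8 (0.980). At the other end, Per3 had r = -0.994 with Arntl, in place 5 from the lowest. These 6 points fall into the 2 title sets and share the libraries, so the correlations describe likeness only. They do not measure size, since Tspan8 averaged 48.0 CPM with letters beyond NA and 61.6 CPM with NA alone, a far smaller change than that of Arntl.

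Genes on the opposite strand overlap some of the exons counted. Thra, the thyroid hormone receptor alpha gene, shares 263 exon bases with Nr1d1, 8.55% of its exons, and Sphk2, a sphingosine kinase gene, shares 539 with Dbp, 18.01% of its exons. Sphk2 lay between 36.0 and 65.0 CPM over the 10 libraries and Thra between 41.9 and 86.7 CPM. The strand setting of the counting is not given in the sources used here, so reads in the shared bases cannot be assigned. Tef shares 193 bases with Gm17597, which was at 2.63 CPM or less in every library.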

How the data were processed

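Kidney poly(A) RNA was sequenced as single-end reads of 100 bases, per the labels. Each library has 1 table of deposited raw counts per Ensembl gene, which the authors did not normalize. The submitters' processing notes name HTSeq 0.6.1, STAR 2.4.1d, CASAVA 1.8.2, Trim Galore, FastQC and the build GRCm38, in no stated order. The sources used here give no settings, annotation release or strand, and the labels name 2 different RNA kits. IDs were matched to GENCODE M21 symbols, 46005 with a match and 512 without.

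Counts were fitted in edgeR 4.0.16 (R 4.3.3) with TMM scaling, filterByExpr (minimum count 10) and quasi-likelihood fits over all 10 libraries. P-values were Benjamini-Hochberg adjusted over all genes tested, called under 0.05. Separate fits grouped the libraries without a risk allele by genotype label, by first title letter, by letters beyond NA or by label and title set together. Each fit had its own estimate of the spread, and the last tested 18613 genes. The common biological coefficient of variation was 0.249 in the fit by genotype label. Risk alleles stand for the mean of the G1 and G2 groups. Group sizes of 2 and 3 limit the precision. Per-library levels are CPM, and logs use a pseudocount of 0.5 CPM. DESeq2 1.42.0, limma-voom (limma 3.58.1), other scalings, no filter, title terms and leaving out each library were alternatives. The fits were tested on simulated data.

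The members, the lists and the title sets were chosen with earlier results of these data known, and the comparisons of risk alleles with each title set were added after the data were seen. The genes named are the 10 members, up to 4 called genes with the lowest p of each list in each comparison, the 5 most like Arntl and the 5 most like Dbp, and overlapping neighbours; Cry1, Nfil3, the genes drawn beside Ciart and Hlf, and Ciart in the risk allele comparison were added after their values were seen.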

Additional observations from a re-analysis of the deposited data

How the results depend on the processing

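Counts of called clock genes between the title sets (6), and for risk alleles against letters beyond NA (6) or NA alone (6), stayed within 1.5 times under every alternative run, at 4 to 6, 6 and 5 to 6 with 1 library left out. For risk alleles against Control the count of 1 became 0 with library totals alone or with the letters NF as a term, 2 with DESeq2 or with titles starting with G as a term, 3 with the groups compared alone and 6 with letters beyond NA as a term, and was 1 to 3 with 1 library left out. Against wild type (single mutant) the count of 2 became 0 with library totals, 1 with limma-voom and 6 with letters beyond NA as a term, and was 1 to 3 with 1 library left out. For G1 against Control the count of 1 became 0 with library totals or the NF term, 2 with DESeq2, the groups alone or the G term and 5 with letters beyond NA, and was 0 to 3 with 1 library left out. For G2 against Control the count of 0 became 1 with median-ratio size factors, DESeq2 or the NF term, 2 with the G term and 5 with letters beyond NA, and was 0 to 1 with 1 library left out. Titles starting with G against N gave 2 with DESeq2 and 0 to 5 with 1 library left out. The cause of these changes was not tested.

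Some signs turned. Arntl in risk alleles against Control was 1.97 with the G term and 0.73 with letters beyond NA as a term, against -1.92. Per2 in risk alleles against NA alone was 0.12 with library totals, 0.033 with limma-voom and -0.44 to 0.51 with 1 library left out. Nr1d1 in risk alleles against letters beyond NA was -0.10 to 0.37 with 1 library left out, turning without G2 replicate 2 or wild type (single mutant) replicate 2. The arm difference between the title sets, -3.64, was -4.71 without Clock and Tef.

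The number of genes called between the title sets, 513, was 921 with no filter and 1380 with DESeq2, and 110 without wild type (single mutant) replicate 2, its lowest. For G2 against G1 the 1198 genes called became 2499 with DESeq2, 1988 with letters beyond NA as a term and 0 with the NF term, and 22 without G1 replicate 2. For risk alleles against Control the 6653 became 3553 with the NF term and 2842 with the G term, and with library totals the split of 3441 up and 3212 down became 6037 and 1600. For G1 against Control the 6656 became 1441 and 3447 with those terms, and 3397 without G1 replicate 2.

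No paired analysis was possible because the replicate numbers follow the order of deposition and pair no libraries. The planned correlation tests of Arntl with each other member were not run, since the 6 libraries without a risk allele fall into separate clusters on Arntl, and r is given only to describe likeness. The lowest count of a member in any library was 27, and what limits the calls was not tested.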
